A study of Mus musculus with 4 samples.

Results

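The small leucine-rich proteoglycans are secreted matrix proteins built around a run of leucine-rich repeats, and 10 of them were followed here among the 56980 genes of a count table of mouse bone marrow mesenchymal stromal cells (MSCs). The members were taken by gene symbol: Dcn, Bgn, Aspn, Fmod, Lum, Prelp, Omd, Kera, Ogn and Epyc, and each symbol was found once. The study asked which ligands and receptors MSCs could use to communicate with macrophages of the marrow. Its MSC libraries came from 4 male wild-type mice of the strain C57BL/6J, kept inbred in-house, aged 14 weeks, with 1 library per mouse. Each library was made from 100 cells of the gate CD45-, Ter119-, CD31- and Sca1- with CD51+ and PDGFRa+, which leaves out leukocytes, red blood cells and endothelial cells. RNA was copied into full-length cDNA from its poly(A) tail, amplified by PCR and fragmented. All 4 libraries form one group, so there was no control or treated sample to compare.

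In the matrix, the concave face of the leucine-rich repeats binds collagen, and the proteins set how thick collagen fibrils grow and how they are spaced. Class I members (decorin, biglycan and asporin) include carriers of chondroitin or dermatan sulfate chains, class II members (fibromodulin, lumican, PRELP, osteomodulin and keratocan) include carriers of keratan sulfate or sulfated tyrosines, and class III holds osteoglycin and epiphycan. Several also bind growth factors of the TGF-beta family, and decorin and biglycan released from the matrix can act on cell surface receptors.

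The deposited values were raw counts of read pairs per gene, between 22738604 and 43545349 per library, and 16109 to 18907 genes had at least 1 count. Levels are given as TPM, a measure corrected for gene length, for which the counts were divided by the length of a gene's merged exons and scaled to 1000000 per library. A gene was called expressed at a median TPM above 1, the cutoff of the study's methods. Of the genes of the sort antigens, Pdgfra was at 30.7 to 48.2 TPM and Itgav (CD51) at 12.9 to 18.1 TPM in the 4 mice. Ly6a, a gene of the Sca1 antigen that the gate excludes, had 0.0472, 8.95, 0 and 11.6 TPM in mice 1 to 4 and so passed the cutoff in mice 2 and 4. All 6 niche stroma markers were expressed, among them Cxcl12, the chemokine that retains blood stem cells, and so were all 4 osteoblast markers. The 4 endothelial markers summed to at most 0.235 TPM in any mouse. Haemoglobin transcripts made up most of a blood marker sum of 3717, 21.1, 1291 and 278 TPM in mice 1, 2, 3 and 4, while the leukocyte gene Ptprc stayed under 1 TPM in every mouse and Csf1r had 0 counts. The sources give no order or batch of sorting for the mice. In RNA from pools of cells, fewer cells of a type and less RNA per cell cannot be told apart.

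Of the 10 members, 7 were expressed, against 22.9% of all genes with a length and 44.2% of protein-coding genes. The same 7 were above 1 TPM in each of the 4 mice, which held for 30.1% of protein-coding genes. Dcn, Lum and Bgn stood above 1000 TPM, Omd above 100, and Fmod, Ogn and Prelp between them and the cutoff. Aspn, Kera and Epyc were below it. Together the members took 1.58, 1.12, 1.21 and 1.66% of all counts in mice 1 to 4, and their summed level was 8603, 5528, 6554 and 7755 TPM, or 7110 ± 1349 (mean ± SD, n = 4 mice). Mouse 1 had the highest sum and mouse 2 the lowest.

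**Figure D1:**
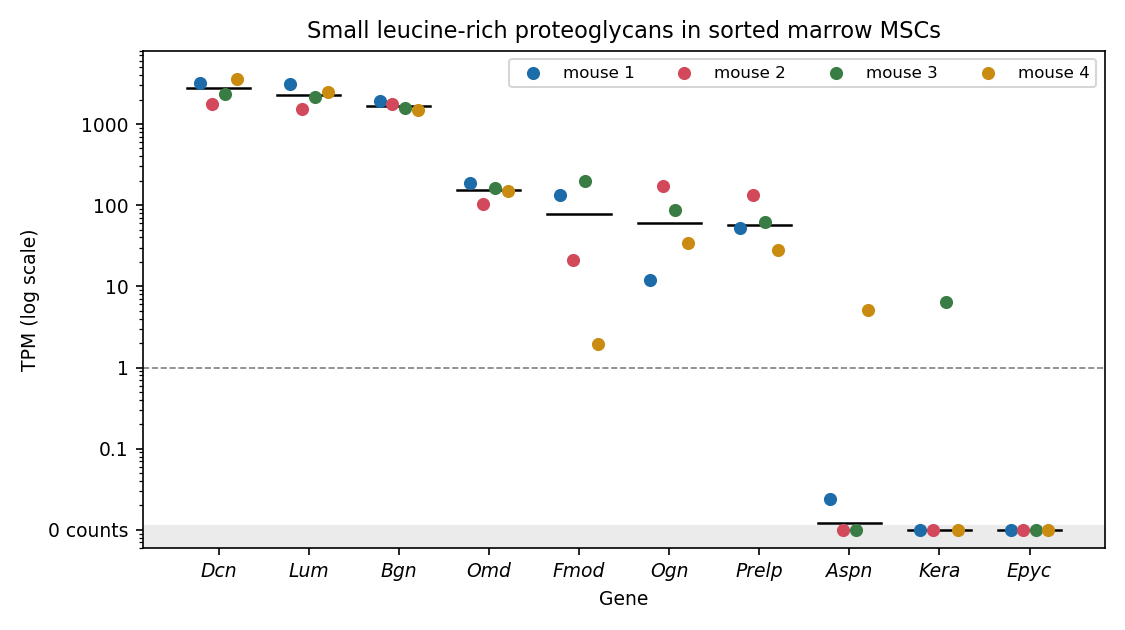
TPM on a log scale (vertical) of each member (horizontal) in the 4 mice, with points coloured by mouse, a bar at the median, a dashed line at the cutoff of 1 TPM, and libraries with 0 counts placed in the grey band. Dcn, Lum and Bgn lie above 1000 TPM in every mouse, Fmod and Ogn spread widely, and Aspn and Kera rise above the cutoff in 1 mouse each.

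The members fall into 3 gene clusters and a lone gene on the X chromosome. With merged exon lengths, some neighbours had like medians (Dcn and Lum, Prelp and Fmod), and others were far apart (Lum and Kera, Aspn and Omd). Prelp and Fmod were alike in the median only, since Fmod ran from 0.0685 to 3.16 times Prelp in single mice. On chromosome 10 (GRCm38 coordinates), Dcn (chr10:97479609-97518143), Lum (chr10:97565128-97572703), Kera (chr10:97606879-97613692) and Epyc (chr10:97644068-97682454) follow each other on the plus strand with no other protein-coding gene between them. Their median levels in that order were 2748, 2291, 0 and 0 TPM. The step from Lum to Kera spans 34175 bases. On chromosome 13, Aspn (chr13:49544443-49567565), Omd (chr13:49582462-49592822) and Ogn (chr13:49608046-49624501) also lie in a row on the plus strand, after the related gene Ecm2, and their medians were 0.0121, 156 and 60.5 TPM. On chromosome 1, Prelp (chr1:133910304-133921414, minus strand) and Fmod (chr1:134037254-134048277, plus strand) are 115839 bases apart, with medians of 57.2 and 78.3 TPM. Bgn is at chrX:73483602-73495933 on the plus strand. Gene structure followed the classes: the longest coding transcripts of Dcn, Bgn and Aspn have 8 exons each, those of Fmod, Lum, Prelp and Kera 3 and that of Omd 4, and those of Ogn and Epyc 7.

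The 150 bases before the start of the 3 chromosome 13 neighbours are shown because their levels ran from near 0 to over 100 TPM within one small cluster, and those of Bgn because it is the highest member with a promoter window in the table used. The windows are from RefSeq (GRCm38.p6, plus strand, 5′ to 3′), which gave one for 8 of the 10 members, and none is printed for Dcn or Lum. Capitals mark matches on either strand to 5 searched motifs: the TATA box as TATAAA, a motif of RUNX factors as TGTGGT, the E-box as CANNTG, the CCAAT box under its own letters, and the AP-1 motif as TGANTCA. The spans are chr13:49544293-49544442 for Aspn, chr13:49582312-49582461 for Omd, chr13:49607865-49608014 for Ogn and chrX:73483451-73483600 for Bgn.
Aspn: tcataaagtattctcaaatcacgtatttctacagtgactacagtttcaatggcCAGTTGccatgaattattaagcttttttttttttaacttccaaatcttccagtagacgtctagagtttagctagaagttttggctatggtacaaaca
Omd: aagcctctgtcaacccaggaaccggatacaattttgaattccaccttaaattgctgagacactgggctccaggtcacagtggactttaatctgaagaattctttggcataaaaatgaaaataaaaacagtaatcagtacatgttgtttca
Ogn: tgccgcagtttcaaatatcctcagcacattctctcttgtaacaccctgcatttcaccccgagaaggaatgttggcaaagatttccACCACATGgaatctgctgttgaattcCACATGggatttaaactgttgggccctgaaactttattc
Bgn: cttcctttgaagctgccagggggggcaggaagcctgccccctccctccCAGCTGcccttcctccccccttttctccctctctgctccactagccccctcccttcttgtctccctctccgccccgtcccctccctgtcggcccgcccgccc
In the 250 bases before the start, Ogn was the only member with a TGTGGT match, beginning 65 bases before the start on the other strand and overlapping a CANNTG match. TGTGGT is held by 14.0% of the 32851 promoter windows of the same length. TATAAA was matched in Aspn and Ogn only, between 178 and 229 bases before the start and so outside the printed stretch, and is held by 12.4% of windows. CANNTG (66.2% of windows) was found in Ogn 3 times, in 1 of the windows of Epyc 2 times and in Aspn, Bgn and Fmod once each, while Omd held none of the 5 motifs. CCAAT (33.8% of windows) was found in Kera, Prelp and Aspn, and TGANTCA (6.75% of windows) in no member. Base composition differed widely, with a GC content of 30% for Aspn, 38.4% for Omd, 42% for Ogn and 64.4% for Bgn, beside a median of 52.4% over all windows. The lowest and the highest of these, Aspn and Bgn, are genes of the same class.

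Among the class I genes, decorin (Dcn), which binds collagen fibrils and TGF-beta, was the most abundant member. Its level was 3179, 1791, 2317 and 3602 TPM in mice 1, 2, 3 and 4, or 2722 ± 820 (SD, n = 4), and its median ranked 29th of all genes with a length. Mice 4 and 1 were high and mouse 2 was low, and the highest was 2.01 times the lowest. With merged exon lengths, Dcn stood at 10.1 ± 2.23% (SD, n = 4) of the level of Col1a1, the main chain of the collagen I that decorin binds. The longest protein-coding transcript has 1758 bases against 5838 merged for Dcn, and 5930 against 6563 for Col1a1. Use of that length would raise the percentage. Biglycan (Bgn), a matrix protein of bone whose loss leaves mice with low bone mass, had 1934, 1759, 1593 and 1480 TPM, or 1692 ± 198 (SD, n = 4). It was the steadiest member: its highest level was 1.31 times its lowest and its coefficient of variation (CV, the SD as a percent of the mean) was 11.7%. In the band between 1000 and 10000 TPM, which holds 90 genes by their mean, 28.9% had a lower CV than Bgn and 80% had a lower CV than Dcn.

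Dcn exceeded Bgn in 4 of 4 mice, by 0.64 ± 0.52 on the log2(TPM + 1) scale (SD), more than the spread between mice. The exact two-sided sign-flip permutation test gave p = 0.125, the smallest value that 4 mice allow, and an adjusted p of 0.208 (Benjamini-Hochberg over 5 pairs of members), so no pair could pass 0.05. The order of these genes rests on their length. The merged exons of Dcn (5838 bases) and Bgn (6099 bases) are much longer than their longest protein-coding transcripts (1758 and 2419 bases), and the longest annotated transcript of each is one with a retained intron. With the longest annotated transcript as the length, Bgn was higher, at 3022 ± 339 TPM against 2644 ± 789 for Dcn (SD, n = 4), and Dcn led in 1 of 4 mice. With the longest protein-coding transcript, a choice made after seeing the data, Dcn stood at 6560 ± 1962 TPM, Bgn at 3097 ± 348 and Lum at 1673 ± 460 (SD, n = 4). A gene's length is the same in every library, so the choice bears on levels between genes more than on those of a gene between mice.

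**Figure D2:**
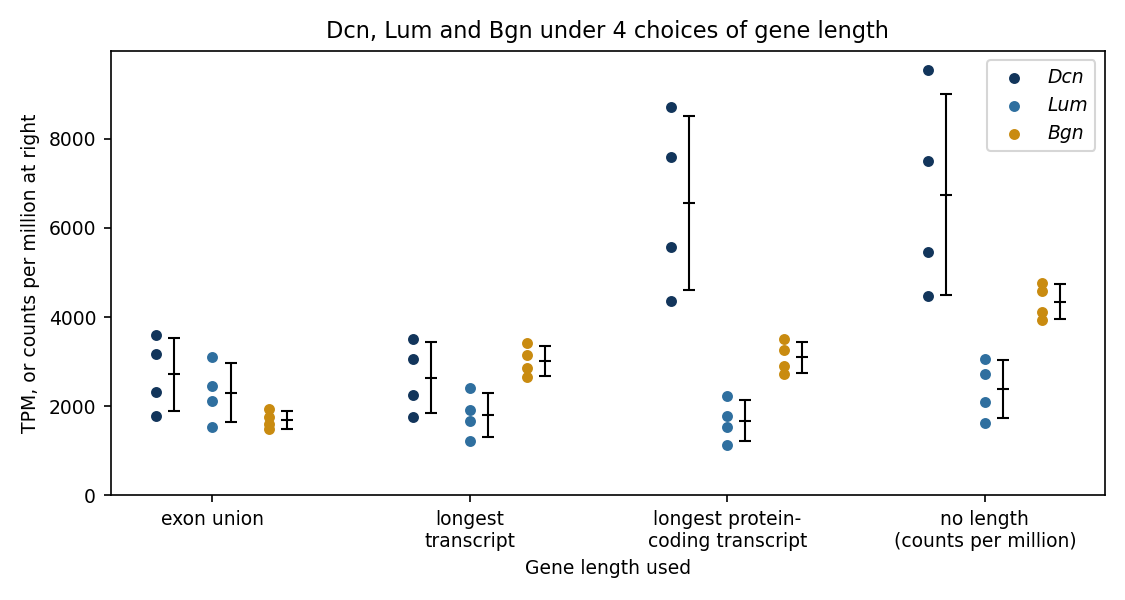
Levels of Dcn, Lum and Bgn (vertical, TPM for the first 3 groups and counts scaled to 1000000 with no length for the last) in each of the 4 mice, with the mean and SD beside the points, under 4 choices of gene length (horizontal). Dcn moves from 2722 TPM with merged exons to 6560 TPM with the longest protein-coding transcript, and Bgn lies below Lum with the first choice and above it with the others.

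Asporin (Aspn), the class I member with a run of aspartates and no sulfated sugar chain, was nearly absent. Its counts were 1, 0, 0 and 125 for mice 1 to 4, giving 5.14 TPM in mouse 4 and 0.0241 TPM in mouse 1. In mice 2 and 3, a count of 0 allows up to 0.115 and 0.0738 TPM (taken as 3 counts, for counting error only). Its exons share 7 bases with Cenpp on the other strand, which had 176, 0, 1 and 48 counts, and the counting parameters in the study's methods list no strand option. Aspn was below its neighbour Omd in 4 of 4 mice, by a mean log2(TPM + 1) difference of -6.55 ± 1.35 (SD, exact permutation p = 0.125, adjusted p = 0.208). With so few Aspn counts the size of this difference is set by the pseudocount, and it was -9.02 with 0.1 TPM in place of 1.

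Lumican (Lum), known for keeping collagen fibrils thin and even in the cornea, was the highest class II gene. It had 3105, 1543, 2126 and 2456 TPM, or 2307 ± 652 (SD, n = 4), with mouse 1 high and mouse 2 low as in the summed level. With merged exon lengths, Lum was at 0.977, 0.862, 0.918 and 0.682 times the Dcn level in mice 1 to 4. That ratio ranged 1.43-fold between mice, less than the 2.01-fold range of either gene. Neighbours in this order of levels lay close together: Dcn exceeded Lum by 0.23 ± 0.23 and Lum exceeded Bgn by 0.41 ± 0.42 on the log2(TPM + 1) scale (SD, n = 4), the latter within the spread. These differences hold for merged exons only, since Lum was far below Dcn with the longest protein-coding transcripts and also without a length (2380 against 6747 counts scaled to 1000000 per library, means of 4 mice). Below them came a clear step, since Bgn exceeded the next gene, Omd, by 3.50 ± 0.37 in 4 of 4 mice.

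Osteomodulin (Omd), a bone protein with an acidic tail that binds mineral, had 186, 105, 164 and 148 TPM, or 151 ± 34.3 (SD, n = 4). Mouse 2 was again the lowest, and the CV of 22.8% lay near the median of 23.5% in the band between 100 and 1000 TPM (911 genes). A stretch of up to 184 bases of Omd occurs nearly identically in 134 other genes. The counts were of uniquely mapped pairs, and the number of reads left out for that stretch is not known here.

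Fibromodulin (Fmod), which carries sulfated tyrosines and guides collagen cross-linking in tendon, varied more between mice than any other expressed member. It had 135, 21.3, 197 and 1.93 TPM, from 7867, 784, 11280 and 66 counts, so that mice 1 and 3 were high and mouse 4 was near the cutoff. The highest level was 102 times the lowest. Its CV of 105% was above that of 93.6% of the 4673 genes in the band between 10 and 100 TPM. Counting error of reads alone would give a mean of 4.49%, which leaves out the sampling of 100 cells and PCR amplification. With 1 library per mouse, these cannot be told apart from differences between mice. Without mouse 4 the range was 9.26-fold. Mice 1 and 3 also had the deepest libraries, with 43545349 and 42747050 counts against 26050230 and 22738604 in mice 2 and 4. The part of depth in the levels of Fmod was not tested. Fmod was below Lum in 4 of 4 mice, with a mean log2(TPM + 1) difference of -5.94 ± 2.75 (SD, exact permutation p = 0.125, adjusted p = 0.208).

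PRELP (Prelp), whose basic end binds heparan sulfate and links basement membranes to collagen, had 52.0, 135, 62.5 and 28.2 TPM, or 69.5 ± 46.1 (SD, n = 4). Mouse 2 was high and mouse 4 low, a 4.79-fold range that was 2.22-fold without mouse 2 and 2.60-fold without mouse 4. Prelp shares 9.68% of its exonic bases with the antisense gene Gm15851, which had 0 counts in every mouse. Prelp and Fmod changed places between mice: Fmod was 2.60 and 3.16 times Prelp in mice 1 and 3, and 0.158 and 0.0685 times Prelp in mice 2 and 4. Their mean difference, Prelp minus Fmod, was 0.73 ± 2.60 on the log2(TPM + 1) scale (SD, exact permutation p = 0.625, adjusted p = 0.625), and without mouse 4 it turned to -0.13. Keratocan (Kera), a corneal keratan sulfate proteoglycan, had 250 counts (6.35 TPM) in mouse 3 and 0 counts in mice 1, 2 and 4, where up to 0.0748, 0.118 and 0.127 TPM would go unseen.

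Osteoglycin (Ogn), the class III gene that lies next to Omd and is made in bone and vessel walls, had 12.1, 174, 87.2 and 33.8 TPM, or 76.8 ± 72.2 (SD, n = 4). Mouse 2 was the highest and mouse 1 the lowest, with a 14.3-fold range (5.15-fold without mouse 1 and 7.18-fold without mouse 2) and a CV above that of 90.8% of genes at its level. Omd exceeded Ogn in 3 of 4 mice, by 1.53 ± 1.92 on the log2(TPM + 1) scale (SD, exact permutation p = 0.25, adjusted p = 0.312), and mouse 2 was the exception. The ratio of Fmod to Ogn was 11.1, 0.122, 2.27 and 0.0572 in mice 1 to 4. Fmod was above and Ogn below its mean in mouse 1, the reverse held in mouse 2, and both were above in mouse 3 and below in mouse 4. Epiphycan (Epyc), a proteoglycan of growth plate cartilage, had 0 counts in all 4 mice, which allows at most 0.0666 to 0.113 TPM depending on the library.

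By share of the summed TPM, the make-up was dominated by the same 3 genes in every mouse. Dcn held 37.8 ± 6.08%, Lum 32.03 ± 3.35% and Bgn 24.4 ± 5.38% (SD, n = 4 for each), together 92.1 to 97.2%. In mouse 2 the shares of Dcn and Bgn were nearly equal, at 32.4 and 31.8%, and in mouse 4 they were farthest apart, at 46.4 and 19.1%. By class, 62.2 ± 3.15% was class I, 36.5 ± 3.79% class II and 1.26 ± 1.36% class III. The shares rest on the merged exon lengths.

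**Figure D3:**
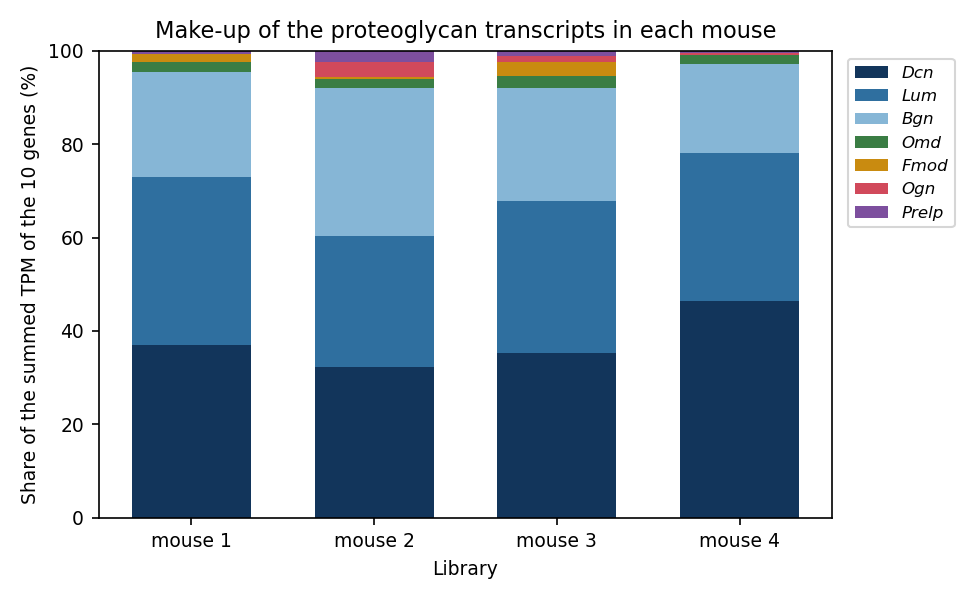
Share of the summed TPM of the 10 members (vertical, percent) held by each of the 7 expressed genes in each mouse (horizontal). Dcn, Lum and Bgn fill 92.1 to 97.2% of every bar, and the remainder is mostly Ogn and Prelp in mouse 2 and mostly Fmod and Omd in mouse 3.

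Deviations over mice were small for the steady members and larger for the others. As the root mean square of the differences between 2 genes' log2(TPM + 1) deviations from their own means, Lum and Omd were 0.15 apart and Dcn and Lum 0.20, while Prelp and Ogn were 1.03 apart and Fmod and Ogn 2.89. A search of 4803 protein-coding genes with a median of at least 10 TPM gave the genes most like each member over the 4 mice. Closest to Dcn were Hmgxb4 (0.06), Atp5c1 (0.09) and 1110065P20Rik (0.09), closest to Lum were Rnf6 (0.04), Rars2 (0.05) and Micos13 (0.05), and closest to Bgn were Snx17 (0.02), Srp68 (0.02) and Cul1 (0.04). For Omd they were Chmp1b (0.02), Rpl13a (0.02) and Atp5j (0.03), and for Prelp Nck1 (0.06), Chordc1 (0.07) and Septin4 (0.08). Such likeness was common for the steady members, with 162 genes within 0.25 of Dcn, 306 of Lum, 592 of Omd and 679 of Bgn. The measure is not scaled to spread, and the root mean square deviation was 0.145 for Bgn, 0.305 for Omd and 2.41 for Fmod. Genes that vary little therefore lie near the steadiest members whatever their order of mice. For Ogn, 5 genes came within 0.25, led by Plxdc2 (0.07), Amacr (0.15) and C6 (0.19). No gene came so close to Fmod, for which the nearest were Atpaf2 (0.50), Tmem161a (0.51) and Hmox1 (0.54).

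Some marker sums of the cell states that the gate could hold had the same order of mice as a variable member, and others did not. The 4 osteocyte markers summed to 1337, 648, 2246 and 491 TPM in mice 1 to 4, mostly Dmp1, while Sost had 0 counts, and 3 of the 4 were expressed. Fmod had the same order of mice as this sum, from mouse 3 down through mice 1, 2 and 4, an order held by 6.57% of the 9684 expressed protein-coding genes. The order of the osteocyte sum is that of Dmp1. Mepe held it too, with 18.99, 18.97, 119 and 5.75 TPM in mice 1 to 4, though mice 1 and 2 were nearly equal. Phex went another way, with 56.2, 41.4, 21.3 and 49.7 TPM, and the summed levels of the chondroitin or dermatan sulfate, keratan sulfate, tyrosine sulfation and growth factor lists described further on ran in the order of Fmod too. The 6 niche stroma markers summed to 1232, 5268, 2768 and 1416 TPM, and Ogn shared the order of that sum, which 5.48% of genes held. The order of the niche stroma sum is that of Cxcl12, Kitl and Adipoq. Lepr, Foxc1 and Ebf3 were also highest in mouse 2 but had mouse 4 above mouse 3. Prelp was highest in mouse 2 as well. The 4 osteoblast markers summed to 108982, 133635, 77792 and 168024 TPM, with mouse 4 high and mouse 3 low, an order set by Bglap, the osteocalcin gene. Without Bglap, the other 3 (Ibsp, Sp7 and Alpl) summed to 12379, 13809, 22124 and 11294 TPM, and mouse 3 was the highest, although Sp7 alone was highest in mouse 1 (339 TPM). The tendon or ligament markers summed to 22.5, 18.8, 53.2 and 30.4 TPM, highest in mouse 3, the mouse with Kera. Their leading gene Tnmd, a tenocyte surface protein, was at 29.1 TPM in mouse 3, 18.2 TPM in mouse 4 and 0 in the others. Scx was also highest in mouse 3 (9.20 TPM), but Mkx was highest in mouse 2 (18.5 TPM) and Thbs4 in mouse 1 (14.6 TPM). The Sca1 fibroblast list was carried by Ly6a, highest in mouse 4, the mouse with Aspn, and its 4 other markers were at or near 0. The part of these cell states, and of the haemoglobin transcripts, in the levels of the members was not tested.

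**Figure D4:**
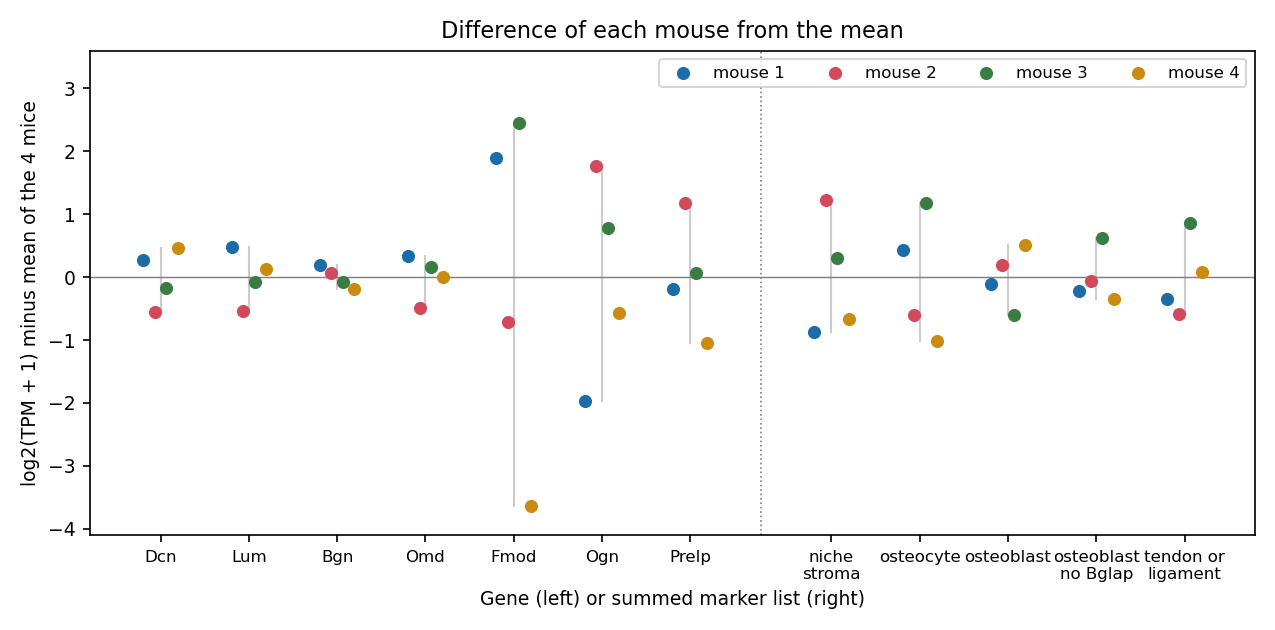
Difference of each mouse from the mean of the 4 mice on the log2(TPM + 1) scale (vertical) for the 7 expressed members and, right of the dotted line, for summed marker lists, the osteoblast list with and without Bglap. Mouse 3 is the lowest in the full osteoblast sum and the highest without Bglap. Dcn, Lum, Bgn and Omd stay within 0.55 of their means, Fmod spans from -3.64 in mouse 4 to 2.44 in mouse 3, and Ogn from -1.97 in mouse 1 to 1.76 in mouse 2.

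Of 8 other genes of the family, 6 were expressed, against 44.2% of protein-coding genes. The 3 that were above 1 TPM in every mouse are near the 30.1% of all protein-coding genes. The highest of the 8 was Chad (chondroadherin, a cell-binding cartilage protein), with 788, 20.01, 267 and 47.6 TPM. Mice 1 and 3 were high for Chad as for Fmod, but the full order of mice differed. The CV of Chad was above that of 99.3% of genes in the band between 100 and 1000 TPM. The chondrocyte markers, 2 of 4 of them expressed, summed to 30.2, 5.17, 12.4 and 1.39 TPM, and the blood marker sum ran in the order of Chad. The member Omd held that order too, as did 8.92% of the expressed protein-coding genes. For Omd the match rests on the scaling, since mouse 4 was above mouse 3 with TMM factors and with a common upper quartile. The part of the chondrocyte or blood markers, or of the greater depth in mice 1 and 3, in these levels was not tested. Podnl1, a relative of podocan, had a median of 27.8 TPM, and Ecm2, Podn, Chadl and Tsku had medians of 4.32, 3.70, 3.54 and 3.08 TPM. Chadl shares 19.5% of its exonic bases with L3mbtl2 on the other strand. Optc, the opticin gene of the eye's vitreous, was at 3.64 TPM in mouse 3 and 0 counts elsewhere, and Nyx, a retinal gene, had 1 count in all.

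The genes that build the sugar chains are read against the shares given above, 44.2% of protein-coding genes by the median and 30.1% in every mouse. Of 23 genes that make the linker and the chondroitin or dermatan sulfate chain, 19 passed the cutoff and 17 did so in every mouse. They were led by the sulfotransferase Chst12 (median 87.9 TPM), the linker enzyme B3gat3 (63.5 TPM) and the sulfotransferase Chst13 (45.7 TPM). Of 8 genes of keratan sulfate synthesis, 5 passed and 3 did so in every mouse, the latter near the share of all protein-coding genes. The highest were the galactosyltransferases B4galt1 (26.3 TPM) and B4galt4 (8.80 TPM), followed by Chst5 (7.79 TPM), and Chst4 had 0 counts. The median over all 8 genes was 2.09 TPM, against 12.6 TPM for the 23 genes of the chondroitin and dermatan sulfate list and 0.135 TPM over all protein-coding genes. All 8 genes of tyrosine sulfation and sulfate supply passed, and 7 did so in every mouse. The exception was Tpst1, with 0, 16.4, 3.17 and 0.0694 TPM in mice 1 to 4, and 7 passed without mouse 2 or without mouse 3. The Golgi sulfate-donor carrier Slc35b2 had a median of 140 TPM and the donor-making enzyme Papss1 78.6 TPM. Tpst2, which sulfates tyrosines, had 160, 82.3, 162 and 44.1 TPM, with mice 3 and 1 high and mouse 4 low, the order of Fmod.

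The next lists are read against the same shares, 44.2% of protein-coding genes by the median and 30.1% in every mouse. Of 14 proteases and their helpers, 11 passed the cutoff and 8 did so in every mouse. With each mouse left out in turn, 8 to 11 passed by the median. Mmp13, the collagenase of bone, had a median of 1298 TPM, the procollagen processing enhancer Pcolce 1290 TPM and the gelatinase Mmp2 620 TPM. Among 10 fibrillar partners, 9 passed, all of them in every mouse, led by Col1a1 (26909 TPM), Col1a2 (11533 TPM) and Col5a2 (569 TPM). Among 8 growth factors that these proteins bind, 7 passed and 6 did so in every mouse, led by Ccn4 (305 TPM), Ccn2 (95.5 TPM) and Bmp4 (35.5 TPM). Of 11 receptors for the free proteoglycans, 7 passed, and the 3 that did so in every mouse are near the 30.1% of all protein-coding genes. By the median, the highest were Cd44 (15.2 TPM), Tlr2 (13.9 TPM) and Lrp1 (12.2 TPM). Cd44 and Lrp1 passed in every mouse, while Tlr2 had 0 counts in mouse 4. Met and Kdr, 2 receptor tyrosine kinases that decorin binds, had 0 counts in every mouse.

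**Figure D5:**
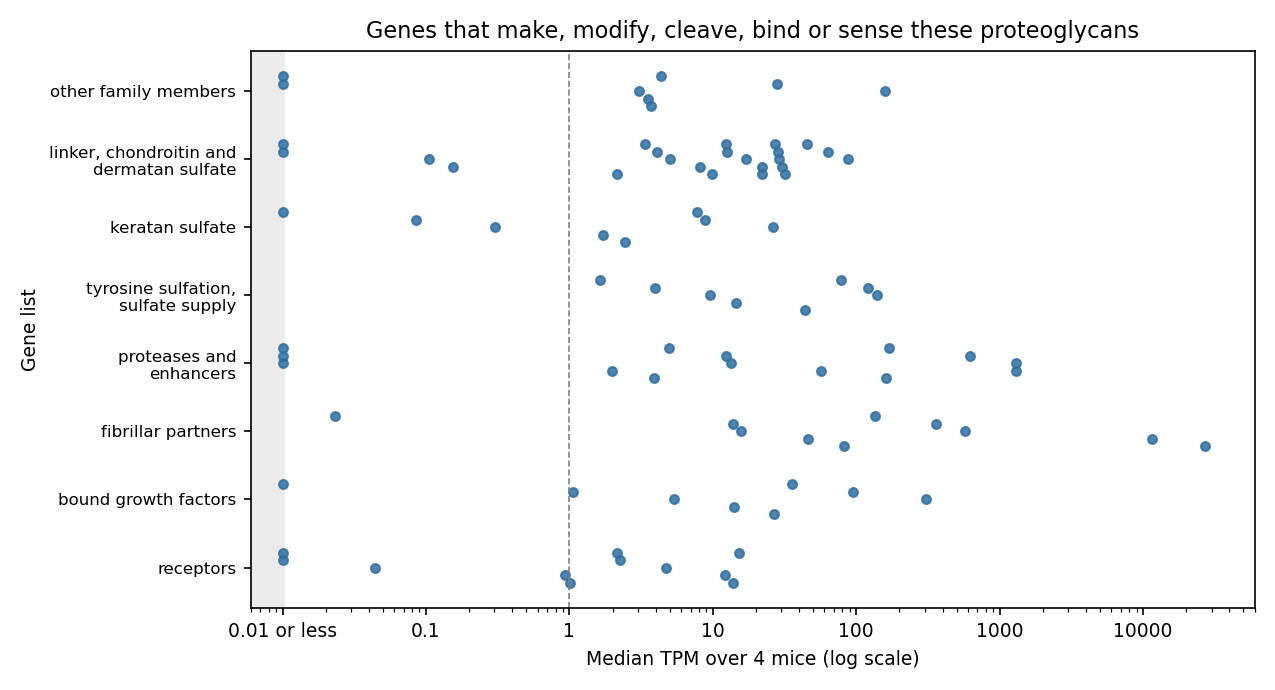
Median TPM over the 4 mice (horizontal, log scale) of each gene in 8 lists (vertical), with the dashed line at the cutoff of 1 TPM and medians of 0.01 TPM or less in the grey band. The fibrillar partners reach 26909 TPM, while no receptor exceeds 15.2 TPM.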

How the data were processed

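The members, lists and pairs were chosen with earlier results of these data known. Per the labels, the study's methods and the submitters' processing notes, read pairs were aligned by the authors with STAR 2.7.10 (GRCm39), unique pairs were assigned to exons by featureCounts (Subread 1.6.5), and raw counts per gene were deposited. From these counts, TPM was computed in Python 3.11.15 (numpy 2.4.6, pandas 2.3.3) with merged exon lengths of GENCODE M21 on GRCm38. Exons that changed between annotations shift a level, and 4855 genes without a length were left out. The length-bearing genes held 96.1 to 98.2% of the counts of a library. One group gives no contrast, so no count model was fitted. Pairs were tested within mice (log2(TPM + 1), exact sign-flip permutation, scipy 1.17.1) and the code was tested on simulated data. TMM factors came from edgeR 4.0.16, and near-identical stretches (95% identity over 100 bases) from BLAST 2.17.0. Genes named beside the members are all other family genes, the 3 highest of each list, listed genes at 0 counts and the 3 most alike genes. Others (Pdgfra, Itgav, Ptprc, Ibsp, Sp7, Alpl, Lepr, Foxc1, Ebf3 and Thbs4 as markers, Tpst1, and overlapping genes) were added because a result touches them. Alternatives changed the length, scaling, cutoff, pseudocount, summary and mice. Each p-value asks whether a within-mouse difference between 2 genes is centred on 0 over these mice. With 1 library per mouse, the sampling of cells and PCR are part of the spread between mice.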

Additional observations from a re-analysis of the deposited data

Results flagged for a closer look

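In 4 genes, the gap between the highest mouse and its nearest neighbour took up nearly the whole range of the group. The gap as a share of the range was 0.995 for Aspn, where mouse 4 was high, and 1 for Kera, where mouse 3 was high. It was also 1 for Optc, again in mouse 3, and 1 for Nyx, where mouse 1 had a single count, fewer than the 3 counts taken as detectable. For Kera, Optc and Nyx, the share is 1 by construction, since the 3 other mice had 0 counts. These were 4 of 24 values examined, and chance flags about 1 in 20 where values are not held at 0. Such a gap was found in 5.40% of the expressed protein-coding genes and in 0 of the 7 expressed members.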

How the results depend on the processing

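No paired analysis was possible because there is a single group and no second group shares its replicate numbers. The number of expressed members was 7 when each mouse was left out in turn, and 9 by the mean over mice, which adds Aspn and Kera. Dcn minus Bgn turned to -0.24 with the longest annotated transcript as length. Without each mouse in turn, Prelp minus Fmod ran from -0.13 (without mouse 4) to 1.52, Dcn minus Bgn from 0.43 to 0.85, Fmod minus Lum from -6.78 to -4.68, Aspn minus Omd from -7.20 to -6.23 and Omd minus Ogn from 0.76 to 2.28. With a cutoff of 5 TPM, 2 other family genes, 3 keratan sulfate genes and 3 receptors passed, and 4 receptors did when every mouse had to hold at least 10 counts. The summed level was 13925 CPM without a length, 11291 TPM with the 10 highest genes left out of the denominator and 11616 TPM with the longest protein-coding transcript, a length chosen after seeing the data. TMM factors shifted all genes by between -0.12 and 0.09 (log2) and a common upper quartile by between -0.19 and 0.22. Under both, the order of mice was kept for Dcn, Lum, Fmod, Prelp and Ogn but changed for Bgn and Omd. Fmod ranged 88.3-fold with TMM and 77.0-fold with the upper quartile. Depth limits the low genes: 3 counts are worth about 0.1 TPM in the shallower libraries, and 4 mice cannot bring an exact permutation p below 0.125.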
